A study of Mus musculus with 2 samples.

Results

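Of the 32285 genes in the matrix, 9 are described here as genes of the renin-angiotensin system, chosen by gene symbol: Agt, Ace, Agtr1a, Agtr1b, Agtr2, Enpep, Anpep, Mme and Lnpep. All 9 had a row in the matrix, and each was read across 3 fibroblast subtypes (by the genes C7, Crabp1 and Adipoq), macrophage-like cells and mast cell-like cells. The rule names symbols and no measured value.

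Angiotensinogen, encoded by Agt, is the secreted protein from which renin cuts angiotensin I, and angiotensin-converting enzyme, encoded by Ace, trims that peptide to the vasoconstrictor angiotensin II. Angiotensin II acts on type 1 receptors (in mice Agtr1a and Agtr1b, a pair of closely related genes) and on the type 2 receptor Agtr2, and in the artery wall it is known for contraction, growth and fibrosis. Membrane peptidases then shorten or remove the peptides: aminopeptidase A (Enpep), aminopeptidase N (Anpep), neprilysin (Mme) and leucyl-cystinyl aminopeptidase (Lnpep), the last of which also binds angiotensin IV.

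The study looked for progenitors with macrophage and endothelial potential in the postnatal aorta. Per the labels, 2 male mice of strain C57BL/6J, 12 weeks old, gave dorsal aortas that were freed of perivascular fat and digested, and the cells formed macrophage colonies (CFU-M) over 14 days in methylcellulose. Viable cells were sorted by DAPI, tagged by MULTI-seq (a lipid-anchored oligonucleotide marks a suspension) and run in a droplet 3′ assay. The labels name no other genotype, treatment or control group for this library, both animals were pooled, and 1 library was analysed, so no difference below has a replicate check and no p-value is given.

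The cells went against these labels in several ways. Mast cell-like cells were 72.8% of the 29285 cells kept (21314 cells), fibroblast-like cells 17.6% (5142) and macrophage-like cells 8.64% (2531). The matrix held tags of 3 suspensions, named Cafum, Matrigel and Macrophages, whose preparation was not given in the sources used here beyond the pooling of a run's samples after labelling. Xist, expressed from the inactive X of females, was at 711 CPM (UMIs of a gene per 1000000 UMIs of a group) in fibroblast-like cells, 351 CPM in those named macrophage-like and 378 CPM in those named mast cell-like, beside Y-linked Ddx3y at 30.98, 54.4 and 18.5 CPM. A UMI, or unique molecular identifier, stands for 1 captured RNA molecule. Which animal a cell came from cannot be told apart in the pooled library. The median depth was 31010 UMIs in fibroblast-like, 11305.5 in mast cell-like and 8435 in macrophage-like cells.

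Class names came from marker lists that include Col1a1 and Csf1r, so the direction of these 2 genes is no finding. Col1a1 was at 2828 CPM in fibroblast-like cells against 45.5 CPM in mast cell-like cells, and Csf1r at 526 CPM in macrophage-like cells against 2.33 CPM in mast cell-like cells. Mast cell RNA was found in every class: the 7 mast cell markers summed to 7962 CPM in fibroblast-like cells, to 18563 CPM where cells were macrophage-like and to 60716 CPM in mast cell-like cells. The C7 subtype held 3332 cells (C7 at 55.9 CPM), the Crabp1 subtype 1148 cells (Crabp1 at 55.7 CPM and Dlk1 at 129 CPM) and the Adipoq subtype 567 cells (Adipoq at 106 CPM), and 95 fibroblast-like cells had no subtype. These genes were not confined to their own subtype. In the cluster of the Adipoq subtype, Crabp1 was at 26.5 CPM and Dlk1 at 23.9 CPM, against 1.295 and 9.88 CPM in the C7 subtype. C7 was at 9.53 CPM in the Crabp1 subtype and 7.84 CPM in the cluster of the Adipoq subtype. The 5 adipocyte markers, Adipoq among them, summed to 1365 CPM in the Adipoq subtype, 442 CPM in the C7 and 440.3 CPM in the Crabp1 subtype. Most of each sum was Fabp4 (1250.4, 439 and 439 CPM), while Plin1, a marker of mature adipocytes, was at 1.63 CPM in the Adipoq subtype. The 6 smooth muscle markers summed to 200.2 CPM in the Crabp1, 76.9 CPM in the C7 and 72.2 CPM in the Adipoq subtype, with Acta2 at 80.1, 11.3 and 20.7 CPM and the contractile gene Myh11 at 0.923, 0.324 and 0.677 CPM. The part of other cell types in the subtype levels was not tested.

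The promoters of Agt, Ace, Agtr1b and Agtr2 are shown because these genes differed most between cell classes or fibroblast subtypes. Each sequence runs 5′ to 3′ on the gene's strand, from 250 bases before to 50 bases after the first transcript start in RefSeq (GRCm38.p6). The first motif marked by capitals is TATAAA, which reads TTTATA when it lies on the opposite strand. The second is CCAAT, which there reads ATTGG, and the third is the GC box, spelled GGGCGG. All 3 were searched on both strands. The windows are chr8:124569657-124569956 (minus strand, Agt), chr11:105967698-105967997 (plus strand, Ace), chr3:20367128-20367427 (minus strand, Agtr1b) and chrX:21484374-21484673 (plus strand, Agtr2).
Agt: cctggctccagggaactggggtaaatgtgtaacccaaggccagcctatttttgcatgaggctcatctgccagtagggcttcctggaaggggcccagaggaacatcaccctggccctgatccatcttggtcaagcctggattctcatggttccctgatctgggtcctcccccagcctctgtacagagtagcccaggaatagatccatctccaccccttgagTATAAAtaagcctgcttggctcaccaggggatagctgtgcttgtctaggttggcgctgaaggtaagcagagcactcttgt
Ace: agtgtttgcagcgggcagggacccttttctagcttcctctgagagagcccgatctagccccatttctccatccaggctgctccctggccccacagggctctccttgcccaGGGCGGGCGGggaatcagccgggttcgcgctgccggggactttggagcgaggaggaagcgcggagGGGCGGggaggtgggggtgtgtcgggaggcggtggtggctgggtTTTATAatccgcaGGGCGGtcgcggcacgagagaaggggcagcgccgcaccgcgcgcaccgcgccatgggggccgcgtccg
Agtr1b: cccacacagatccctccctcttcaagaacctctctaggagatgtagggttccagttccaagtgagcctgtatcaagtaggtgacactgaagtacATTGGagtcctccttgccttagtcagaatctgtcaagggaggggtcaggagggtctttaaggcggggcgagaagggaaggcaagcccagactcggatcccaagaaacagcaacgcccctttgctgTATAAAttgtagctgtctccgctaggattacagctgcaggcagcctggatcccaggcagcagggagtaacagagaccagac
Agtr2: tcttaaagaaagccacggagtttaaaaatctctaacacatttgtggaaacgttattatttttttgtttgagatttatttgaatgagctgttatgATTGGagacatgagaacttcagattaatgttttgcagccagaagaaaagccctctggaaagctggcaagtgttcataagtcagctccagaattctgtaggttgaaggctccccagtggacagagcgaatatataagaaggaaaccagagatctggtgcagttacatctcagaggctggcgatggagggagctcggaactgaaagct

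Counting from the start site as position 0, the TATAAA motif began at -30 in Agt and at -31 in Agtr1b on the gene's strand. In Ace it began at -31 on the other strand. Agtr1b and Agtr2 both held a CCAAT box on the other strand at -156, and Ace held 4 GC boxes, the first at -140. Among 32544 RefSeq promoters of the same length, 13.6% held TATAAA, 37.4% the CCAAT box and 35.9% the GC box, each on either strand. RefSeq promoters were matched for 8 of the 9 genes, with 11 start sites, and no promoter was matched for Agtr1a. Counted by start site, like the shares above, TATAAA was in 4 of the 11, the CCAAT box in 6 and the GC box in 6. Counted by gene, TATAAA was in 4 of the 8 (Agt, Ace, Agtr1b and Enpep), a CCAAT box in 5 and a GC box in 4. In Enpep it lay only on the other strand, at -52 and -1. Only this exact spelling was searched, so the TATATAA in the Agtr2 sequence was not counted. RefSeq lists 2 start sites for Ace, and counts from the 3′ end do not tell which was used.

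The genes lie apart in the genome (GENCODE M21, GRCm38). Agt is at chr8:124556534-124569706, Ace at chr11:105967945-105989964, Agtr1a at chr13:30336441-30382867, Agtr1b at chr3:20314473-20367177 and Agtr2 at chrX:21484544-21489164. Enpep is at chr3:129269175-129332720, Anpep at chr7:79821803-79861059, Mme at chr3:63241537-63386030 and Lnpep at chr17:17521410-17625050. The counts of Agtr1a are uncertain because it overlaps Gm48161, which has the same orientation, and Ace overlaps Gm11651 on the other strand. The coding sequences of Agtr1a and Agtr1b (1080 bases each) were 90.8% identical. In the last 500 bases of their transcripts, where 3′ reads fall, 36 of 1421 distinct 31-base stretches of Agtr1a were found in Agtr1b transcripts, and 0 of 894 the other way round.

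Most of the 9 genes were higher in fibroblast-like cells. Between fibroblast-like and mast cell-like cells, 7 of the 9 genes were higher in fibroblast-like cells (Agt, Ace, Agtr1a, Agtr1b, Agtr2, Enpep and Mme) and Anpep was lower, where a call needed a CPM ratio of at least 4 with 95% Poisson intervals apart. Of 13909 genes tested, 18.9% were called higher and 6.77% lower. The median log2 ratio was 5.47 for the 9 genes and 0.06 for all genes tested. Against macrophage-like cells, 6 of the 9 genes were higher in fibroblast-like cells, the same genes without Enpep, where 13.7% of 14374 genes were called higher and 8.22% lower. The median log2 ratio there was 4.38 for the 9 genes and 0.16 for all genes tested.

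**Figure D1:**
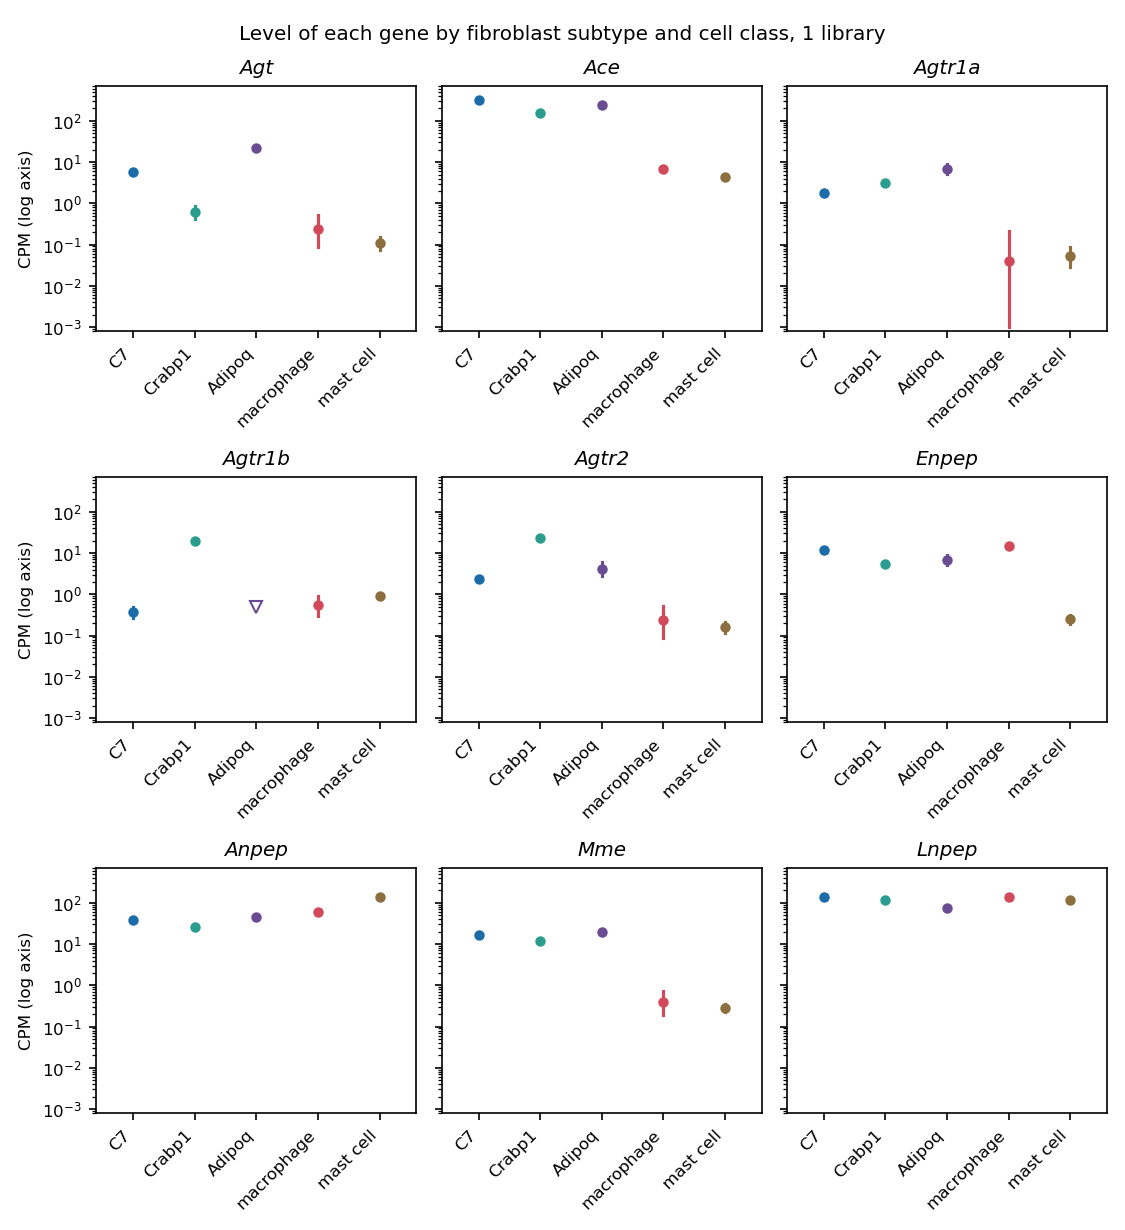
Level of each of the 9 genes in CPM (log axis) in the 3 fibroblast subtypes, macrophage-like and mast cell-like cells of 1 library, with points for CPM of summed UMIs, lines for 95% Poisson intervals (counting error only) and an open triangle for the upper bound at 0 UMIs. Ace lies between 156 and 320.1 CPM in the 3 subtypes and at 6.68 and 4.26 CPM in the other classes, while Lnpep lies between 73.9 and 142 CPM throughout.

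Agt was at 4.90 CPM in fibroblast-like cells (95% interval 4.57 to 5.25), with 0.234 CPM (0.0860 to 0.510) for macrophage-like and 0.111 CPM (0.0758 to 0.157) for mast cell-like cells. The fibroblast-like level was 44.2-fold that of mast cell-like cells (31.05 to 65.0) and 20.9-fold that of macrophage-like cells (9.56 to 57.1). In all, 808 UMIs lay in 336 of 5142 fibroblast-like cells, so the transcript was found in few cells. After thinning each cell to 5500 UMIs, Agt was detected in 2.22% of fibroblast-like cells (exact Clopper-Pearson 95% interval 1.83 to 2.67) and 0.0453% of mast cell-like cells (0.0207 to 0.0860). Without thinning these shares were 6.53% and 0.150%.

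Ace, the converting enzyme, was at 267 CPM in fibroblast-like cells (264.6 to 269.6), with 6.68 CPM (5.72 to 7.76) for macrophage-like and 4.26 CPM (4.02 to 4.50) for mast cell-like cells. The ratios were 62.7 over mast cell-like cells (59.3 to 66.4) and 40.0 over macrophage-like cells (34.4 to 46.7). Thinned shares of cells with an Ace UMI were 63.8% in fibroblast-like cells, against 3.03% (macrophage-like) and 2.55% (mast cell-like). Unthinned, these were 90.1%, 5.33% and 5.50%. The Ace level in mast cell-like cells was 0.0159 of that in fibroblast-like cells, inside the range of the 6 fibroblast markers (0.0139 for Pdgfra to 0.0267 for Lum).

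The low levels outside fibroblasts followed those marker ratios for most of the genes. In mast cell-like cells, the ratio to the fibroblast-like level was 0.0226 for Agt, 0.0216 for Agtr1a, 0.0189 for Agtr2, 0.0253 for Enpep and 0.0186 for Mme, all within the range of the fibroblast markers. Of the 7 genes higher in fibroblast-like cells, the exception was Agtr1b at 0.150. In macrophage-like cells the fibroblast markers ranged from 0.0188 to 0.0393, with Ace at 0.0250, Agtr2 at 0.0278 and Mme at 0.0260 inside that range, Agtr1a just under it at 0.0162 (1 UMI), and Agt at 0.0479 (6 UMIs) and Agtr1b at 0.0883 (14 UMIs) above it. How far RNA from other cells accounts for these low levels was not tested.

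**Figure D2:**
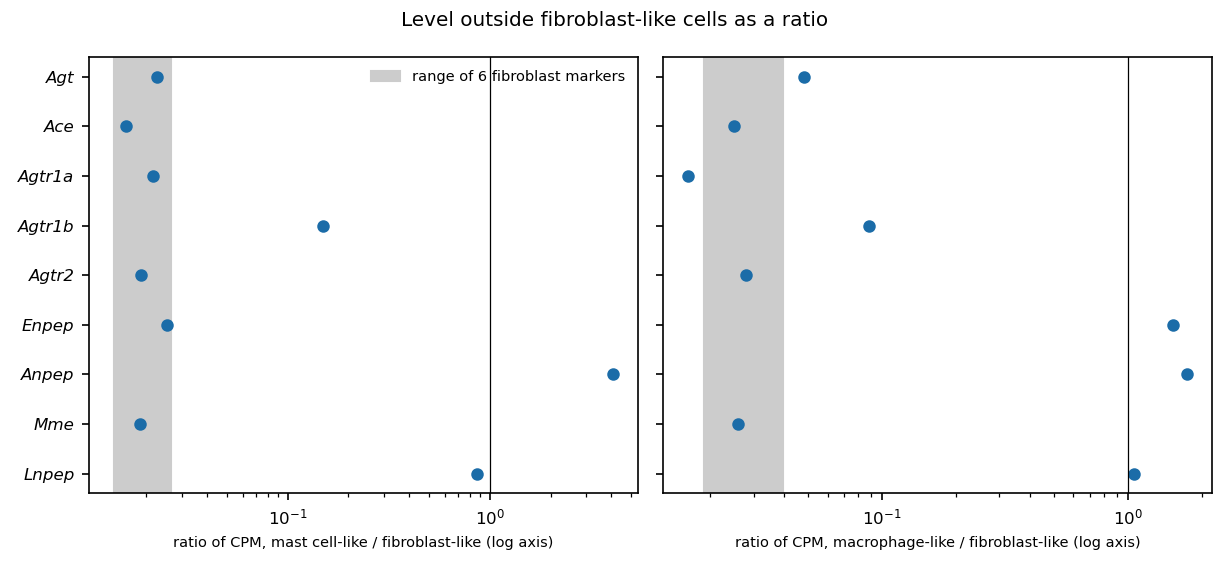
Ratio of CPM in mast cell-like (left) and macrophage-like (right) cells to CPM in fibroblast-like cells for each gene, on a log axis, with a line at 1. The grey band is the range of 6 fibroblast markers, and in mast cell-like cells Agtr1b (0.150), Lnpep (0.866) and Anpep (4.07) lie above it.

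The receptors had low totals. Agtr1a, the more widely expressed of the mouse type 1 receptor genes, was at 2.41 CPM in fibroblast-like cells (2.18 to 2.66), with 0.0520 CPM (15 UMIs) for mast cell-like and 0.0391 CPM (1 UMI) for macrophage-like cells. Its ratio was 46.3 over mast cell-like cells (27.7 to 83.5) and 61.6 over macrophage-like cells, with a counting interval of 11.0 to 2439 that reflects the single UMI. Agtr1b was at 6.20 CPM in fibroblast-like cells (5.82 to 6.59), with 0.928 CPM (0.821 to 1.05) for mast cell-like and 0.547 CPM (0.299 to 0.918) for macrophage-like cells, whose intervals overlapped. Of the 14 Agtr1b UMIs in macrophage-like cells, 8 came from 1 cell, and without it the level was 0.235 CPM. Of the same 14, 12 lay in the 605 cells called for more than 1 tag (1.31 CPM). The 1862 cells with the Macrophages tag held 2 (0.125 CPM). Agtr2 was at 8.43 CPM in fibroblast-like cells (7.99 to 8.89), against 0.234 CPM (macrophage-like) and 0.159 CPM (mast cell-like), whose intervals overlapped.

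Mme, the membrane peptidase neprilysin, followed the same division at 15.1 CPM in fibroblast-like cells (14.5 to 15.7), with 0.391 CPM (0.187 to 0.719) for macrophage-like and 0.281 CPM (0.223 to 0.349) for mast cell-like cells, whose intervals overlapped. The other 3 peptidases did not. Enpep, which turns angiotensin II into angiotensin III, was highest in macrophage-like cells at 15.1 CPM (13.6 to 16.7), against 9.87 CPM in fibroblast-like cells (9.40 to 10.4) and 0.249 CPM in mast cell-like cells (0.195 to 0.314). It was the only one of the 4 genes that passed the filter on low values (Ace, Enpep, Anpep and Lnpep) to be called higher in macrophage-like than in mast cell-like cells, with a ratio of 60.5, where 12.4% of 13171 genes were called higher and 1.11% lower. Anpep, which turns angiotensin III into angiotensin IV, was highest in mast cell-like cells at 141 CPM (139.7 to 142.4), with 60.3 CPM (57.3 to 63.4) for macrophage-like cells next and 34.6 CPM (33.8 to 35.6) for fibroblast-like cells last. Lnpep was at 133, 140.3 and 115 CPM in fibroblast-like, macrophage-like and mast cell-like cells, with a ratio of 1.15 between fibroblast-like and mast cell-like and 1.22 between macrophage-like and mast cell-like cells. Thinned shares of cells with a UMI followed these levels: Enpep was found in 6.72% of the cells when macrophage-like, 5.35% when fibroblast-like and 0.136% when mast cell-like, and Anpep in 21.9%, 17.1% and 52.9%. Lnpep was found in 49.9%, 48.1% and 45.3% of the same classes.

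Anpep outside mast cell-like cells moved with mast cell RNA. Its level in fibroblast-like cells was 0.246 of that in mast cell-like cells, above the 7 mast cell markers (0.120 to 0.142), and in macrophage-like cells 0.427, above the markers' 0.272 to 0.352. In fibroblast-like cells called for the Cafum tag it was at 70.3 CPM (65.2 to 75.7), where the mast cell markers summed to 21042 CPM, and with the Matrigel tag at 21.5 CPM (20.5 to 22.6), where they summed to 3304 CPM. In macrophage-like cells it was at 34.5 CPM with the Macrophages tag, where the mast cell markers summed to 8671 CPM, and at 107 CPM in cells called for more than 1 tag, where they summed to 35931 CPM. Without cells called for more than 1 tag, the log2 ratio of macrophage-like to mast cell-like cells was -2.03 in place of -1.23, which passed the threshold of the lower call. With called doublets kept, Anpep was at 0.283 of the mast cell-like level in fibroblast-like cells and was not called. The part of mast cell RNA in the remaining Anpep level was not tested.

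Between the 3 fibroblast subtypes, 6 of the 9 genes differed (Agt, Ace, Agtr1a, Agtr1b, Agtr2 and Enpep), where a call needed the highest subtype to be at least 2-fold the lowest with intervals apart. Of 14156 genes tested, 27.9% were called in this way. The median log2 ratio of the highest to the lowest subtype was 1.16 for the 9 genes and 0.65 for all genes tested. Agt and Agtr1a were highest in the Adipoq subtype, Agtr1b and Agtr2 in the Crabp1 subtype, and Ace and Enpep in the C7 subtype.

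Agt was at 22.3 CPM in the Adipoq subtype (19.1 to 26.0), 5.67 CPM in the C7 subtype (5.23 to 6.14) and 0.615 CPM in the Crabp1 subtype (0.415 to 0.878). The 3 intervals were apart, and the Adipoq level was 36.3-fold the Crabp1 level (24.5 to 55.5) and 3.94-fold the C7 level (3.30 to 4.69). The Adipoq value rested on 165 UMIs in 52 of 567 cells, with up to 15 UMIs in 1 cell. The order also held in cells called for the Matrigel tag, at 14.9, 4.74 and 0.714 CPM. Within the Adipoq subtype, cells without a tag call were at 43.2 CPM (32.3 to 56.4), 2.91-fold those with the Matrigel tag (1.96 to 4.30).

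Ace was at 320.1 CPM in the C7 subtype (316.7 to 323.5), 243 CPM in the Adipoq subtype (232 to 255) and 156 CPM in the Crabp1 subtype (152.7 to 159.8). The C7 level was 2.05-fold the Crabp1 level (2.00 to 2.10), close to the threshold of 2, and with called doublets kept the ratio was 1.98 and not called. Unlike Agt, Ace was spread over the cells: 95.9% of C7, 86.6% of Crabp1 and 74.6% of Adipoq cells held a UMI, with medians of 8, 4 and 2 UMIs. Thinned to 5500 UMIs these shares were 70.6%, 47.5% and 60.5%, so the place of the Adipoq subtype, whose median depth of 10722 UMIs was the lowest, depended on the thinning. In cells with at least 3 UMIs of Mki67 and Top2a together, genes of dividing cells, the Ace level in the Crabp1 subtype was 111 CPM against 193 CPM in the other cells.

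Of the 1022 Agtr1b UMIs in fibroblast-like cells, 982 lay in the Crabp1 subtype. The gene was at 20.1 CPM there (18.9 to 21.4) and at 0.370 CPM in the C7 subtype (0.264 to 0.504), a 54.4-fold difference (39.7 to 76.6). The Adipoq subtype held 0 UMIs, against which the Crabp1 level was at least 40.2-fold higher, the lower bound of the exact 95% interval (49.6-fold with the 0 counted as 3 UMIs). The 982 UMIs lay in 208 of 1148 cells (18.1%), and the 115 cells with most UMIs held 87.5% of them. Thinned shares were 5.67% of Crabp1 cells (4.40 to 7.17), 0.151% of C7 cells and 0 of 440 Adipoq cells, which allows a share of cells with a UMI of up to 0.682% by the floor of 3 cells and 0.835% by the exact interval. A single barcode, which had the highest depth of the cells kept (243243 UMIs), held 161, and without it the Crabp1 level was 16.9 CPM.

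Agtr2, the type 2 receptor, was at 22.6 CPM in the Crabp1 subtype (21.3 to 24.0), 4.20 CPM in the Adipoq subtype (2.85 to 5.96) and 2.35 CPM in the C7 subtype (2.07 to 2.66). The Crabp1 level was 9.63-fold the C7 level (8.40 to 11.1) and 5.39-fold the Adipoq level (3.78 to 7.97). It was found in 238 of 1148 Crabp1 cells (20.7%), 106 of 3332 C7 cells (3.18%) and 19 of 567 Adipoq cells (3.35%). Thinned shares were 7.94% (6.44 to 9.66), 0.994% (0.685 to 1.39) and 2.50% (1.25 to 4.43).

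Agtr1b and Agtr2 shared cells within the Crabp1 subtype. Of 1148 cells, 59 held UMIs of both, against 43.1 for independent detection (a ratio of 1.37). In thinned cells 13 held both, against 5.16 (a ratio of 2.52). Most cells with 1 of these receptors therefore had no UMI of the other at this depth. The excess was not particular to this pair. Without thinning, 35 cells held Agtr1a and Agtr2, against 19.7 (a ratio of 1.78), and 24 held Agtr1a and Agtr1b, against 17.2 (1.39). In thinned cells these counts were 3 against 1.59 and 4 against 1.13, too few to rank the pairs. Agtr2 was lower in dividing cells, at 12.3 CPM with Mki67 and Top2a and 30.9 CPM without, a ratio of 2.50 (2.18 to 2.88). Agtr1b was at 15.8 and 23.6 CPM, a ratio of 1.499 (1.31 to 1.71). The barcode of 243243 UMIs held 161 of the 641 Agtr1b UMIs in the cells without, so this ratio rests in part on 1 cell. Agtr1a (1.39 against 4.57 CPM) and Mme (6.84 against 15.5 CPM) were also lower in dividing cells of this subtype. Agt was not lower there (0.647 against 0.590 CPM).

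Agtr1a followed another order than Agtr1b. It was at 6.77 CPM in the Adipoq subtype (5.03 to 8.93), 3.16 CPM in the Crabp1 subtype (2.68 to 3.70) and 1.79 CPM in the C7 subtype (1.54 to 2.06). The Adipoq value came in large part from 27 cells with at least 2 UMIs of mesothelial markers (Msln, Upk3b, Lrrn4, Upk1b and Krt19, which mark the lining of serous cavities): these held 27 of its 50 UMIs at 32.0 CPM (21.1 to 46.5), 9.09-fold the 3.52 CPM of the other 540 cells (5.02 to 16.6). The 5 markers summed to 186 CPM in the 27 cells and 3.06 CPM in the others. Over all 166 fibroblast-like cells with these markers, most of them outside the Adipoq subtype, Agtr1a was at 4.78 CPM (3.37 to 6.59, 37 UMIs). The high level was thus seen in the 27 cells and not in mesothelial-marker cells as a whole. Without mesothelial-marker cells the log2 ratio of the highest to the lowest subtype was 0.97 in place of 1.92 and was not called. With called doublets kept it was 0.93 and not called, and the highest subtype was Crabp1 in place of Adipoq. With subtypes taken cell by cell it was 0.05, with the highest level in C7. That selection went by each cell's own UMIs and left only 440 C7, 187 Crabp1 and 64 Adipoq cells.

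A small fibroblast-like cluster of 134 cells, led by Hmcn1, Cxadr, Slpi, Clu and Edn1, held the highest Agtr1a and Mme levels of the 12 clusters at resolution 0.5. Agtr1a was at 16.0 CPM there (11.0 to 22.5) against 2.23 CPM in the main fibroblast-like cluster, and Mme at 35.9 CPM (28.2 to 45.1) against 14.8 CPM. Ace was lower there at 86.4 CPM (74.2 to 100.1) against 269 CPM, and Agt and Agtr1b had 0 UMIs. Markers of other cells also differed: the 5 mesothelial markers summed to 70.4 CPM, the 7 endothelial markers to 246 CPM and the 7 mast cell markers to 15370 CPM in this cluster. The deepest cell of this cluster held 61468 UMIs, as did the deepest of the 27 mesothelial-marker cells above. The 2 groups may therefore share cells and are not separate observations, and their overlap was not counted. The part of other cell types in the levels of this cluster was not tested.

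The peptidases varied less between subtypes. Enpep was at 12.1 CPM in the C7 subtype (11.4 to 12.8), 6.77 CPM in the Adipoq subtype (5.03 to 8.93) and 5.41 CPM in the Crabp1 subtype (4.78 to 6.11), where the last 2 intervals overlapped, and the C7 level was 2.23-fold the Crabp1 level (1.96 to 2.56). With subtypes taken cell by cell, Enpep was instead highest in the Adipoq subtype, and Mme was also called there (log2 ratios of 2.51 and 2.16). The Adipoq subtype held only 64 cells in that selection. Mme was at 19.4, 16.3 and 11.7 CPM in the Adipoq, C7 and Crabp1 subtypes, a ratio of 1.66 between highest and lowest, with the intervals of the first 2 overlapping. The 27 mesothelial-marker cells held 56 of the 143 Mme UMIs of the Adipoq subtype. Over all 166 fibroblast-like cells with these markers, Mme was at 14.9 CPM (12.3 to 17.8), near the 15.1 CPM of all fibroblast-like cells. Without mesothelial-marker cells Mme was at 13.3, 16.4 and 12.0 CPM in the same subtypes, with C7 highest. Anpep was at 46.6, 37.4 and 26.6 CPM in the Adipoq, C7 and Crabp1 subtypes, a ratio of 1.75, which was 2.81 and called with doublets kept. In cells with little mast cell and macrophage RNA it was at 24.0, 23.6 and 16.2 CPM, with the intervals of the first 2 overlapping. Lnpep was at 142 CPM in the C7, 120.0 CPM in the Crabp1 and 73.9 CPM in the Adipoq subtype, a ratio of 1.92 (1.77 to 2.10). Its log2 ratio of 0.94 lay just under the threshold of 1, and it was called under 4 other selections of cells (log2 1.08 without cells of more than 1 tag, 1.12 in cells with little mast cell and macrophage RNA, 1.03 without mesothelial-marker cells and 1.04 with the Matrigel tag alone).

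The subtypes differed in their suspension tags, so levels were compared within a tag. The Matrigel tag was called on 61.4% of Crabp1, 56.1% of Adipoq and 43.6% of C7 cells. With the Matrigel tag alone, Agtr1b was at 22.7 CPM in the Crabp1 subtype against 0.291 CPM in the C7 subtype, and Agtr2 at 25.5 against 2.08 CPM. The barcode of 243243 UMIs, among these Crabp1 cells, held 161 of their 667 Agtr1b UMIs. The level of 22.7 CPM and the ratio of 5.17 below thus rest in part on 1 cell. In the 39 Crabp1 cells without a tag call, Agtr1b was at 4.39 CPM (5 UMIs) and Agtr2 at 6.14 CPM (7 UMIs), lower than with the Matrigel tag by a ratio of 5.17 (2.20 to 16.0) and 4.14 (2.00 to 10.3). The 22 Crabp1 cells with the Cafum tag held 1 UMI of Agtr1b and 11 of Agtr2, the latter in 2 cells (13.4 CPM, 6.67 to 23.9). What differed between suspensions beside the tag was not tested.

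**Figure D3:**
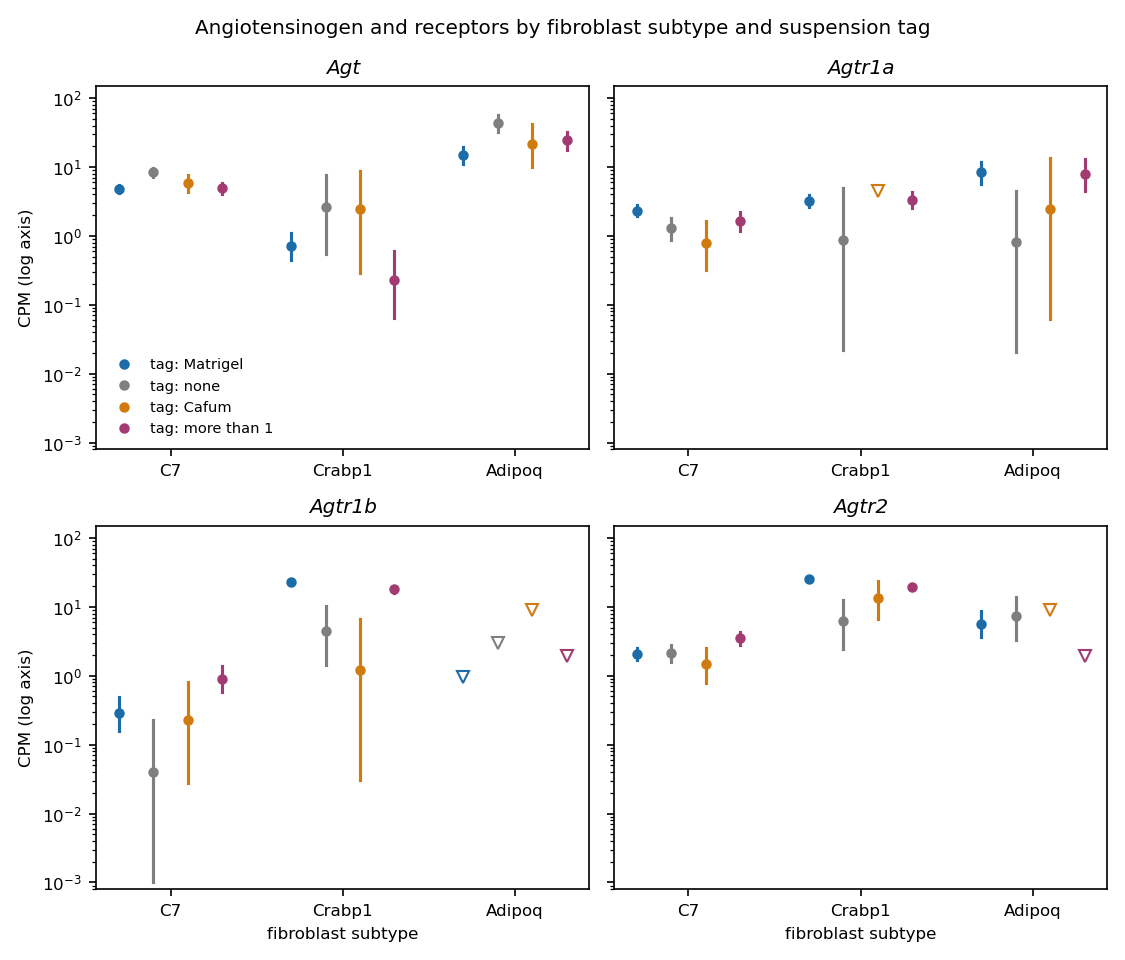
CPM (log axis) of Agt, Agtr1a, Agtr1b and Agtr2 by fibroblast subtype and suspension tag, with 95% Poisson intervals, open triangles as upper bounds at 0 UMIs, and the 36 or fewer cells per subtype with the Macrophages tag not drawn. Agtr1b lies at 22.7 CPM in Crabp1 cells with the Matrigel tag, where 1 barcode held 161 of 667 UMIs, and at 0 UMIs in the Adipoq cells of each tag drawn.

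Within the macrophage-like cells, Enpep was not evenly spread. At resolution 1 they fell into a cluster of 1634 cells led by Ednrb, Lyve1, Fcna, Timd4 and Folr2, genes of resident macrophages, and a cluster of 897 cells led by S100a8, S100a9, Lyz1 and Il1b, which went unnamed because genes of another marker list led it. Enpep was at 22.9 CPM (20.6 to 25.4; 361 UMIs in 253 cells) in the Lyve1 cluster and 2.54 CPM (1.65 to 3.75; 25 UMIs in 20 cells) in the S100a8 cluster, a ratio of 9.01 (6.00 to 14.1). The 5 neutrophil markers summed to 1.21 CPM in the first and 991 CPM in the second. The mast cell markers summed to 18955 and 17933 CPM, and Anpep was at 62.6 and 56.6 CPM. Both clusters had similar Ace levels, 6.66 CPM (5.45 to 8.06) and 6.71 CPM (5.19 to 8.54), with overlapping intervals.

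Among the 6 mast cell-like clusters, Anpep and Agtr1b varied. Anpep was highest at 213 CPM (209.5 to 216.5) in a cluster led by Ifitm1, Ctse and Slc6a4, the serotonin transporter, and 166 CPM (163 to 169) in a cluster led by Gm4847, Mrgprb1 and Mrgprb2. It was lowest at 71.4 CPM (68.7 to 74.2) in a cluster led by histone genes of dividing cells, 2.98-fold under the highest (2.86 to 3.11). Lnpep ranged from 76.0 CPM in a cluster led by Csrp3 and Gchfr to 162 CPM in the Mrgprb1 cluster, a ratio of 2.13 (2.04 to 2.23).

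Agtr1b was at 2.78 CPM (2.40 to 3.21) in the Mrgprb1 cluster and between 0.247 and 0.467 CPM in the other 5, a ratio of 5.95 (4.06 to 9.01) over the Slc6a4 cluster. Its 191 UMIs lay in 95 of 6194 cells, with at most 10 UMIs in 1 cell. The 6 fibroblast markers summed to 218 CPM in this cluster against 201 CPM over all mast cell-like cells. Xist moved with it: Xist was at 766 CPM in the Mrgprb1 cluster, 286 CPM in the Slc6a4 cluster and 180 CPM in the Csrp3 cluster, and Y-linked Uty at 3.95, 22.2 and 7.05 CPM. In the Mrgprb1 cluster, cells with at least 2 Xist UMIs and no UMI of 4 Y-linked genes (4916 cells) held 176 of the Agtr1b UMIs at 3.21 CPM, while the 45 cells with the reverse pattern held 0, a number too small to show a difference (upper bound 9.26 CPM). In the Slc6a4 cluster the values were 0.964 CPM in 1759 such cells and 0.338 CPM in 788 cells of the reverse pattern, a ratio of 2.85 with an interval of 0.840 to 15.1 that includes 1. Among cells with Xist and no Y-linked UMI alone, the intervals of the Mrgprb1 cluster (2.76 to 3.73) and the Slc6a4 cluster (0.581 to 1.51) were apart.

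**Figure D4:**
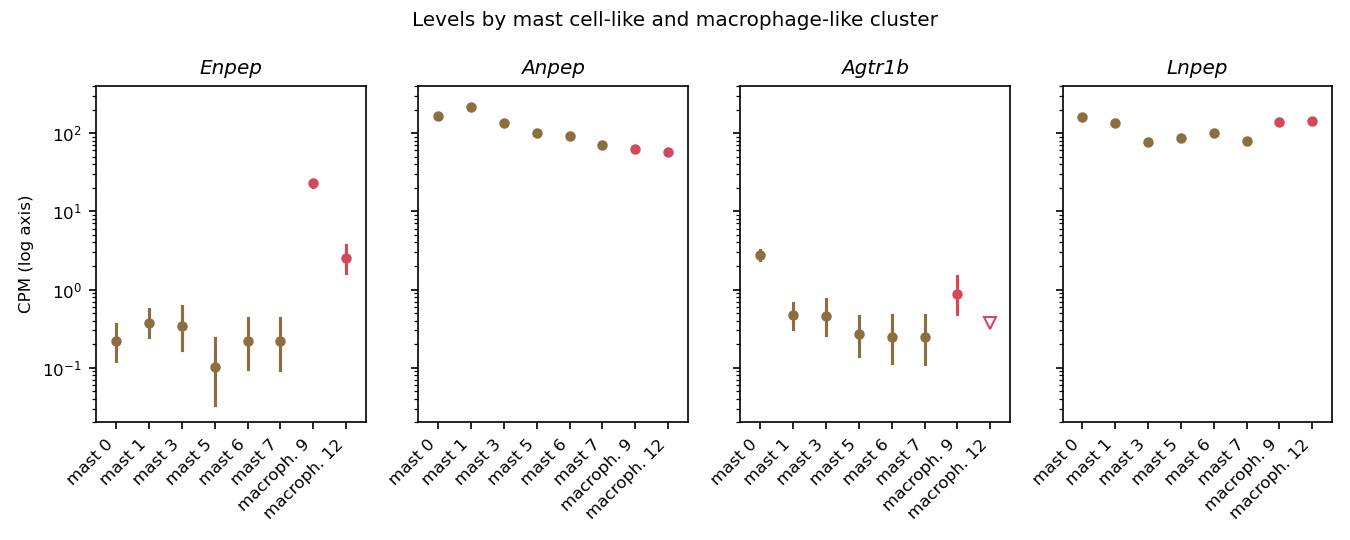
CPM (log axis) of Enpep, Anpep, Agtr1b and Lnpep in the 6 mast cell-like clusters (resolution 0.5) and the 2 clusters of macrophage-like cells (resolution 1), with 95% Poisson intervals and an open triangle as upper bound at 0 UMIs. Enpep is at 22.9 CPM in macrophage cluster 9 (Lyve1) and 2.54 CPM in cluster 12 (S100a8), and Agtr1b is highest in mast cluster 0 (Mrgprb1) at 2.78 CPM.

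The upstream enzyme was scarcely detected. Ren1, which encodes renin, had 1 UMI in mast cell-like cells and 0 in the 164983669 UMIs of fibroblast-like cells, where 3 UMIs would be 0.0182 CPM. Mas1, a receptor for a shorter angiotensin peptide, had 94 UMIs in 89 fibroblast-like cells at 0.570 CPM (0.460 to 0.697), 0.564 CPM in the C7 and 0.656 CPM in the Crabp1 subtype, and 3 UMIs each in macrophage-like and mast cell-like cells. In the 3′ counts of these cells, renin was thus at or under the counting floor while Agt and Ace were above it.

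Of 18 other genes of the system, 14 were tested. Between fibroblast-like and mast cell-like cells, 0 were higher in fibroblast-like cells (18.9% of all genes tested) and 4 lower (6.77% of all): the mast cell proteases Cma1 (chymase, which can form angiotensin II), Mcpt4, Ctsg (cathepsin G) and Cpa3 (carboxypeptidase A3). Cma1 was at 21283 CPM in mast cell-like cells, against 6536 CPM (macrophage-like) and 2912 CPM (fibroblast-like), but Cma1, Mcpt4 and Cpa3 were among the markers that named mast cells, so their direction is no finding. Against macrophage-like cells, 0 were higher in fibroblast-like cells (13.7% of all genes) and 1 lower (8.22% of all), Prcp, a carboxypeptidase that cleaves angiotensin II, at 15.25 CPM against 117 CPM. Prcp was also the 1 gene called higher in macrophage-like than in mast cell-like cells, and Ctsg the 1 called lower, where 12.4% and 1.11% of all genes were called. Between subtypes, 2 of the 14 were called, a smaller share than the 27.9% of all genes: the lysosomal genes Ctsa (cathepsin A, 181 CPM in the Adipoq, 125 CPM in the C7 and 64.7 CPM in the Crabp1 subtype) and Ctsd (cathepsin D, 523, 394 and 251 CPM). The receptor-associated gene Agtrap was at 38.7, 40.0 and 31.3 CPM and the prorenin receptor Atp6ap2 at 56.7, 167 and 68.2 CPM in fibroblast-like, macrophage-like and mast cell-like cells.

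For each of the 9 genes, the gene most like it in pattern was found by Pearson correlation of log2(CPM + 1) over the 17 clusters with at least 100 cells at resolution 1, among 13026 genes. The clusters share 1 library and its free RNA, and 3 of them are fibroblast-like, so the values describe a pattern only. Agt was most like Saa1 (r = 0.98), an acute-phase gene, and Ace most like Igfbp7, Bgn and Sparc (each r = 1.00), genes of secreted matrix-associated proteins. Agtr2 was most like Gjb5 (0.99), Esm1 (0.98) and Nrn1 (0.97), Agtr1b like Ptn (0.89), which encodes a secreted growth factor, and Agtr1a like Cyp2f2 (0.96). Enpep was most like Sema6a (0.98), Mme like Larp6 (1.00), Anpep like 5730420D15Rik (0.99) and Lnpep like Braf (0.96). Agtr1b had the lowest of these best correlations.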

How the data were processed

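The authors deposited raw UMI counts per gene and barcode (34813 barcodes, 32285 genes, 3 MULTI-seq tags), made with Cell Ranger 7.0.0 on the mm10 build, per the submitters' processing notes. Barcodes passed (33964) with 500 genes, 1000 UMIs or more and no more than 10% mitochondrial UMIs, and were kept unless Scrublet called a doublet (4679 removed), leaving 29285. Scanpy 1.11.5 clustered them on log counts per 10000 (2000 variable genes, 30 principal components, 15 neighbours, Leiden resolution 0.5), leaving out 114 listed genes, the 9 genes included, with mitochondrial and ribosomal genes. A class needed at least 3 markers at 50 CPM or more and 4 times the lowest cluster. Fibroblast-like cells formed nearly 1 cluster at resolution 0.5, so subtypes came from resolution 1. These thresholds, that resolution and the tag calls (2 times background, 1.4 for Cafum) were set after seeing the data.

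Levels are CPM of summed UMIs with exact Poisson 95% intervals. Ratios have exact conditional binomial intervals, and shares used cells thinned to 5500 UMIs, which left out 188 fibroblast-like, 553 macrophage-like and 1444 mast cell-like cells. Intervals and floors (3 counts) cover counting error only, and do not cover spread between animals. Between classes a call needed a ratio of at least 4, intervals apart and a mean of at least 1 CPM, and between subtypes a ratio of at least 2. The calling step was tested on simulated counts. The 9 genes were all named, with any of 18 other genes of the system (1 of them is not reported here) and the 3 genes most like each in pattern at most. The members and lists were chosen with earlier results of these data known. Python 3.11.15, NumPy 2.4.6, SciPy 1.17.1 and pandas 2.3.3 were used. The separate tag library was not used, since the matrix holds the tag counts. The 17 marker lists served to name and check clusters.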

Additional observations from a re-analysis of the deposited data

How the results depend on the processing

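Between fibroblast-like cells and each of the other classes, no direction turned for any of the 9 genes under the alternatives run. Between macrophage-like and mast cell-like cells, the direction of Agtr1a and Agtr1b, both under the filter on low values, did turn. The count of genes higher in fibroblast-like cells was 7 against mast cell-like cells under all 8 alternatives and 6 against macrophage-like cells under all 7. The count between subtypes ranged from 5 (called doublets kept) to 9 (a ratio of at least 1.5 in place of 2). Of 261 pairs of a gene and an alternative, 245 kept the call. Detection shares depended on depth: without thinning, 45 of 54 shares moved beyond their interval, and with a minimum of 2 UMIs, 51 did. The selections by low mast cell and macrophage RNA, mesothelial markers and the Matrigel tag alone were chosen after seeing the data. With doublets kept no cluster could be named macrophage-like, and at resolution 0.5 the subtypes could not be separated, so these gave no value. No paired analysis was possible because 1 library was analysed.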
